A study of Oryza sativa Indica Group with 17 samples.

Results

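LOC4347937, known as PDX12 and belonging to the PDX1 family of vitamin B6 synthesis, lies near the start of rice chromosome 10 between 4 measured neighbors: LOC4347935 and LOC4347936 before it, and LOC4347940 and LOC4347941 after it. These 5 genes were chosen on the values of a single array, that of mutant line G6489, where each had a share of flagged probes of 0.5 or more. They are 5 of the 17903 nuclear genes that could be measured and placed, 899 of which lie on chromosome 10. Their values in G6489 are therefore given as a description without a test. Earlier results of these data were known at the choice, so the values on the other 16 arrays are description as well.

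Genomic DNA from leaves of 45 day old greenhouse plants was hybridized to the Affymetrix Rice GeneChip, 1 array for each of 16 mutant lines of the indica variety IR64 and 1 for unmutagenized IR64, the wild type check. G6489 is 1 of 10 lines that the labels assign to gamma rays, the others being G282, G650, G6485, G6603, G6686, G6728, G7534, G9799 and G6989. Fast neutrons were used for F1856 and F2045, and diepoxybutane (DEB) is given for d1, D256, D1137 and D2943, although the study's methods name gamma rays for d1. All mutant lines had been taken to the M4 or M5 generation by single seed descent, no line has a second array here, and no target gene is named for G6489. The study asked which genes a mutant line lacks: a probe whose signal fell far enough below that of wild type was flagged, and the value of a probe set is the share of its perfect match probes, 11 in most sets, that were flagged. A share of 0 means that no probe was flagged and a share of 1 that all were. A gene counted as called once its share reached 0.5, with the median taken where it has several probe sets.

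Vitamin B6 is the group of vitamers whose active form, pyridoxal phosphate, serves as the cofactor of aminotransferases, decarboxylases and many other enzymes of amino acid metabolism, and which also quenches reactive oxygen in plants. Plants make it from sugar phosphates and glutamine with an enzyme complex in which PDX1 proteins build the pyridine ring and PDX2, a glutaminase, delivers the ammonia. PDX1 proteins come as small gene families, and in Arabidopsis a knockout of the catalytic members together is lethal to the embryo. The tables used here give no name or function for the other 4 genes, so they are called by their identifiers. On an array of this kind a gene missing from both chromosome copies would leave its probes with background and cross-hybridizing signal only, and close gene copies elsewhere in the genome can keep that signal up.

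The arrays differed in how often probes were flagged at all. The mean share over the 17903 genes was 0.0246 in G6489, ran from 0.00385 in G650 to 0.216 in G6989 among the other lines, and was 0.0815 in the wild type check. The study's counts of predicted deletions by mutant line include neither D1137 nor G6989, and give no reason for these lines. Its text says that arrays deviating strongly from wild type were left out, without naming them. For G282 the study recommends a stricter limit, because its number of predictions was large. The labels set every array against the wild type check, the check itself included, and how its own ratios were formed is not clear from the sources used here.

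PDX12 is read by 1 probe set, and 9 of its 11 probes were flagged in G6489, a share of 0.818 (95% exact Clopper-Pearson interval 0.482 to 0.977). Such intervals cover counting error only, and the probes of a set, which can overlap in the gene, are not independent. Over the other 16 arrays the share of PDX12 had a lowest value of 0, a median of 0.0909 and a highest value of 0.545, and the wild type check had no flagged probe. The highest of these was that of the DEB line D1137, with 6 of 11 probes flagged (interval 0.234 to 0.833), followed by G6989 at 0.364 and G282 at 0.273. The lines d1, G6686, G6728 and G7534 had 0.182, D256, D2943, G6485 and G6603 had 0.0909, and G650, G9799, F1856, F2045 and the wild type check had 0.

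LOC4347936, the neighbor before PDX12, is read by 2 probe sets, and in G6489 one had all 11 probes flagged (share 1, interval 0.715 to 1) and the other 8 of 11 (share 0.727). Their median was 0.864 in G6489, against a lowest of 0, a median of 0.0455 and a highest of 0.273 over the other 16 arrays. The highest of the other arrays was G6989, and in none of the remaining 15 did the gene exceed 0.0455. LOC4347936 thus had the widest gap of the 5 genes between G6489 and the next array, 0.591.

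LOC4347935 stands first in the gene order of chromosome 10, with no annotated gene before it in the assembly used for the order. It had 6 of 11 probes flagged in G6489, a share of 0.545 (interval 0.234 to 0.833), against a lowest of 0, a median of 0 and a highest of 0.182 over the other arrays. This was the lowest share of the 5 genes in G6489, and 6 is the smallest number of 11 probes that makes a call. The next highest array was G282.

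LOC4347940 is read by 2 probe sets, which had 7 and 8 of 11 probes flagged in G6489 and a median share of 0.682. Over the other 16 arrays its lowest share was 0, its median 0.0227 and its highest 0.136, the last in G6989. Of the 5 genes it had the lowest ceiling among the other arrays, and both of its probe sets were far above that ceiling in G6489.

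LOC4347941, the last gene of the run, had the highest share of any measured gene in G6489: 10 of its 11 probes were flagged, a share of 0.909 (interval 0.587 to 0.998). Its values over the other 16 arrays had a lowest of 0, a median of 0.0909 and a highest of 0.545 in G6989, and the wild type check had 0.182. G6603 and F2045 followed G6989 with 0.273 each. As with the other members, no other array reached the value of G6489.

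**Figure D1:**
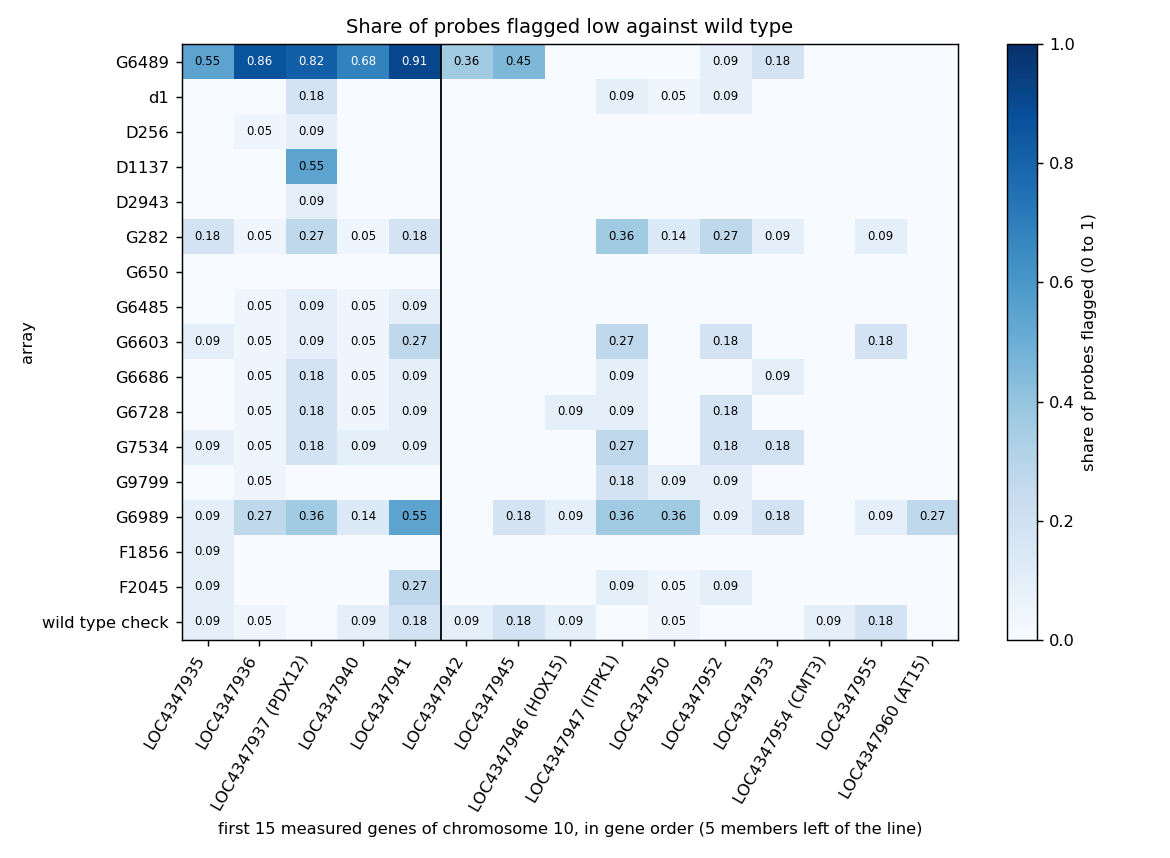
Share of probes flagged (0 to 1, color and printed value; blank cells are 0) for the first 15 measured genes of chromosome 10 in gene order, 1 row for each of the 17 arrays with G6489 at the top and the wild type check at the bottom. The 5 members stand left of the vertical line and run from 0.545 to 0.909 in G6489, while single members reach 0.545 in D1137 (PDX12) and in G6989 (LOC4347941).

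Over the 7 probe sets of the 5 genes, 59 of 77 probes were flagged in G6489, a share of 0.766 (exact Clopper-Pearson interval 0.656 to 0.855). G6989 was next with 20 of 77 probes (0.260, interval 0.166 to 0.372), G282 had 9 and the wild type check 6 (0.0779, interval 0.0291 to 0.162). The median of the other 16 arrays was 4.5 flagged probes. In G650 0 of the 77 probes were flagged, which allows a share of up to 0.0390 (3 counts), and the exact interval there reaches 0.0468. Because the members were picked for their values in G6489, this gap describes how they were chosen and is no independent evidence.

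**Figure D2:**
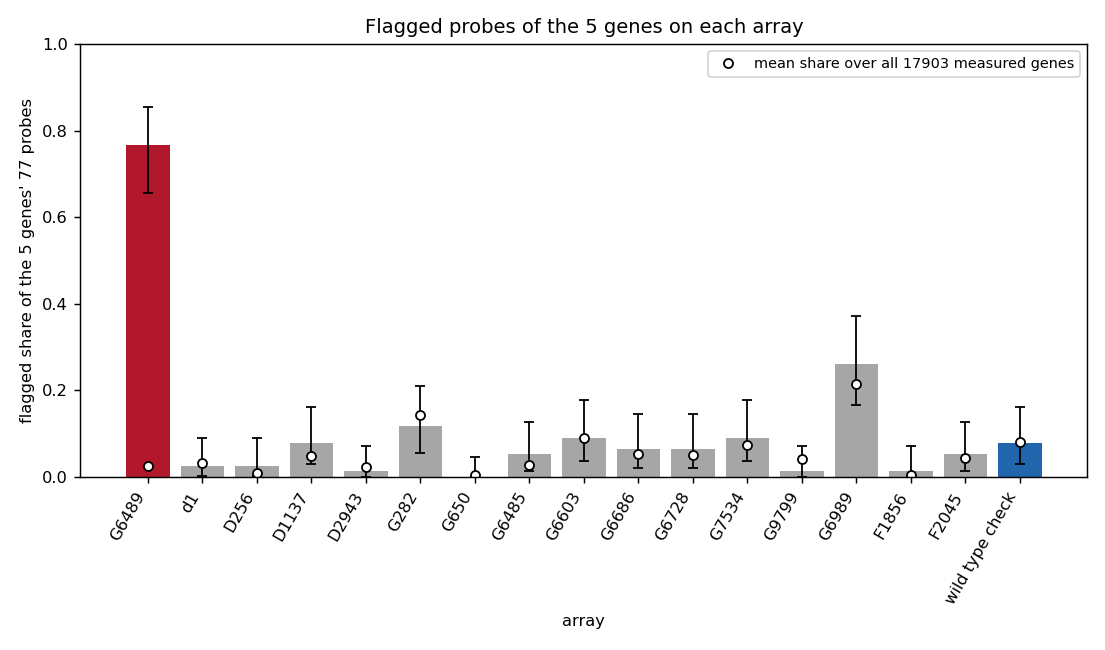
Share of the 77 probes of the 5 genes that were flagged on each array (bars, with 95% exact Clopper-Pearson intervals as error bars, counting error only) and the mean share over all 17903 measured genes of the same array (open circles). The bar of G6489 stands at 0.766 over a mean of 0.0246, while in G6989 the bar of 0.260 lies close to that array's mean of 0.216.

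All 5 members were called in G6489, where 0.0279% of the 17903 measured genes were called, that is, these 5 genes and no other when a gene takes the median of its probe sets. Of single probe sets, 32 were called in G6489: 7 of the members, 3 of other genes and 22 not paired with exactly 1 gene. By its own mapping and at its looser limit, the study lists more deleted gene models for G6489. These lie on chromosome 10 and on most other chromosomes. At its stricter limit, with the same proportion of probes, the study counts 5 probe sets for G6489 and does not name them. Which limit lies behind the shares used here is not stated. With the highest probe set of each gene 8 genes were called, adding LOC4324621 (chromosome 1), LOC4335876 (chromosome 4) and LOC4348707 (chromosome 10, outside the run). The 3 sets behind these added genes had a share of 0.545 each in G6489. Of these sets, 1 was called on 8 other arrays (highest 0.727, in G282) and 1 on 3 other arrays (highest 0.818, in d1). The last was called on no other array (highest 0.455, in G6485). Without the sets whose names end in _s_at or _x_at, which can detect several transcripts, 7 genes were called, adding LOC4335876 and LOC4348707. Of the 80 values of the members on the other 16 arrays, 2 were calls. PDX12 was called in D1137, an array on which 302 genes or 1.69% were called and the median gene share was 0. The remaining members had a share of 0 in D1137. LOC4347941 was called in G6989, an array on which 3.1% of the genes were called and the median gene share was 0.182. The other members of the run had 0.0909 to 0.364 in G6989. Each call outside G6489 was of a single member, on an array where 302 (D1137) or 555 (G6989) genes were called. Neither of these lines is in the study's own counts of deletions by line.

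The mean share of the 5 members over the other 16 arrays was 0.0756 against 0.0587 over the remaining measured genes, and 43.8% of their values were 0 against 60.8%. By the mutagen of the labels, the flagged probes out of 77 ran from 1 to 6 in the 4 DEB lines, from 0 to 20 in the 9 other gamma ray lines and from 1 to 4 in the 2 fast neutron lines. These ranges overlap, and the mutagens were not compared by a test. PDX12 and LOC4347941 had the highest medians of the 5 over the other arrays (0.0909 each), and LOC4347935 the lowest (0).

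The gene order beyond the run was followed over the next 10 measured genes. LOC4347942, next to LOC4347941, had 4 of 11 probes flagged in G6489, a share of 0.364, against a highest value of 0.0909 on the other arrays, in the wild type check. LOC4347945, the second gene past the run, had a share of 0.455 in G6489, just under the threshold, against 0.182 in the 2 arrays that came next, G6989 and the wild type check. The member nearest the threshold from above was LOC4347935 at 0.545. Both outer genes stayed under the threshold in G6489, so neither was called, but both were highest there. On 14 or more of the other 16 arrays each had a share of 0.

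From the third gene on, the values of G6489 were within the range of the other arrays. LOC4347946 (HOX15, a homeodomain transcription factor) and LOC4347947 (ITPK1, an inositol phosphate kinase) had a share of 0 in G6489, as did LOC4347950, LOC4347954 (CMT3, a DNA cytosine methyltransferase), LOC4347955 and LOC4347960. LOC4347952 had 0.0909 and LOC4347953 had 0.182 in G6489. The value of LOC4347953 equals the highest of the other arrays. None of the 10 genes past the run was called on any of the 17 arrays. ITPK1 had its highest share, 0.364, in G282 and G6989, where it was 0 in G6489.

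**Figure D3:**
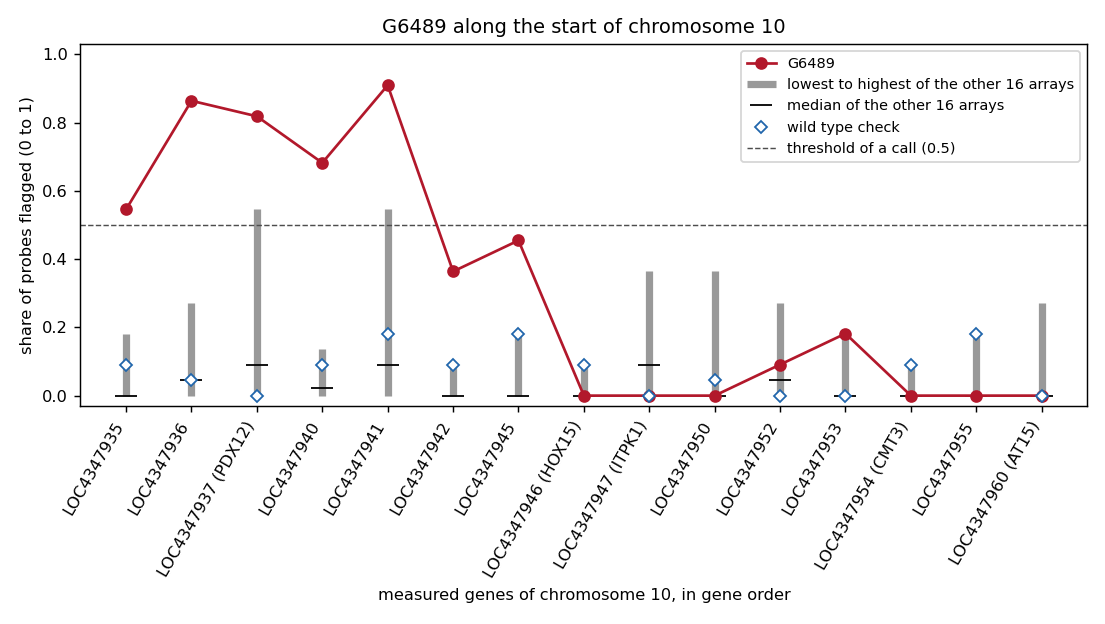
Share of probes flagged (0 to 1) for the first 15 measured genes of chromosome 10 in gene order: G6489 (red points and line), the lowest to highest value of the other 16 arrays (gray bars), their median (black dashes) and the wild type check (blue diamonds), with the threshold of a call at 0.5 (dashed line). G6489 lies above all other arrays at 7 genes in a row, the last 2 at 0.364 and 0.455, and from LOC4347946 (HOX15) on it has 0 at 6 genes, 0.0909 at LOC4347952 and 0.182 at LOC4347953.

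With a call at 4 of 11 probes, a threshold chosen after the values were seen, the run that holds PDX12 took in 7 measured genes in a row, from LOC4347935 to LOC4347945. At that threshold 13 genes or 0.0726% were called in G6489, and the 6 outside the run lie on other chromosomes. Of these 6, LOC4345351 on chromosome 8 was likewise higher in G6489 than on any other array (0.364 against at most 0.182). The remaining ones were as high or higher on at least 1 other array, such as LOC4342729 on chromosome 7, which had 0.636 in D1137.

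**Figure D4:**
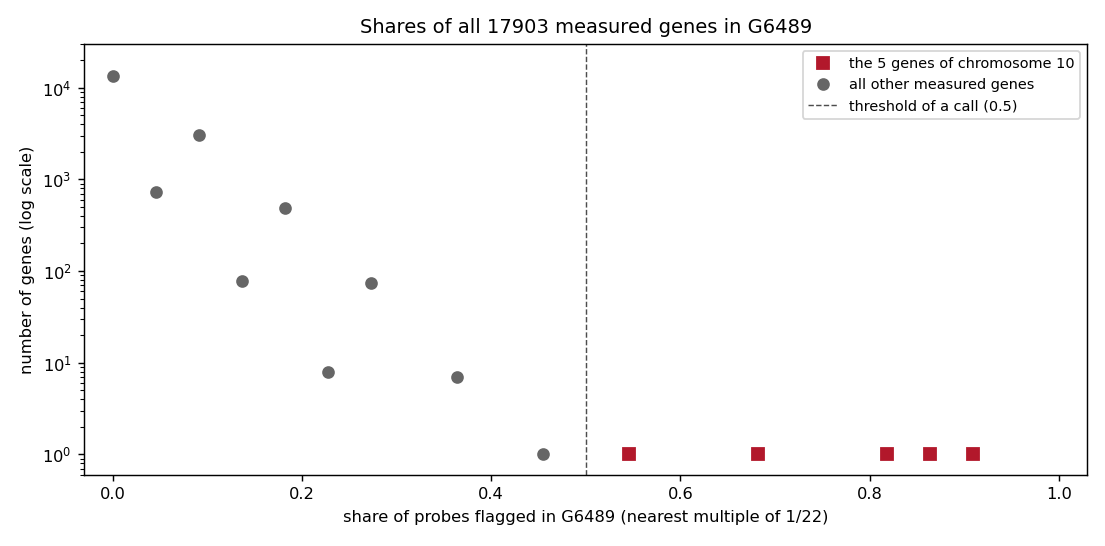
Number of measured genes (log scale) at each share of flagged probes in G6489, rounded to the nearest multiple of 1/22, for the 5 members (red squares) and all other measured genes (gray circles), with the threshold of a call as a dashed line. Of the 17903 genes 13451 had a share of 0, 1 gene outside the run reached 0.455 and 7 reached 0.364.

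The run holds few gene models without a value. Between LOC4347935 and LOC4347941 the annotation has 1 further model, the noncoding LOC107279128. Between LOC4347941 and LOC4347945 it has 3 models without a value, of which LOC107277185 codes for a protein. Past LOC4347945 another 3 models, 2 of them protein coding, stand before LOC4347946, the first measured gene at 0. None of these 7 models is paired with a probe set of its own, so where between LOC4347945 and LOC4347946 the flagging ends was not resolved.

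Of the vitamin B6 genes looked for by name (PDX1 members, PDX2, PDX3 and the pyridoxal kinase SOS4), 2 are named in the tables used: PDX12 and LOC4342162, known as PDX11, which is another member of the PDX1 family and the first annotated gene of chromosome 7. In G6489 PDX11 had no flagged probe, against 9 of 11 for PDX12. Over the other 16 arrays its lowest share was 0, its median 0 and its highest 0.182, the last in D1137, G282 and G9799. PDX11 was called on no array. PDX12 is among the members chosen for their values in G6489, so its call there was fixed by that choice.

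Across the 17 arrays the members resembled each other to different degrees, as a description in which every correlation includes the array they were chosen on. LOC4347936 and LOC4347940 had Pearson's r = 0.982, and each was the gene most like the other among all 17721 genes with any spread. For PDX12 the r with the other members ran from 0.679 (LOC4347941) to 0.780 (LOC4347936). In D1137, where PDX12 had 0.545, the other members had 0. The 5 genes outside the run most like PDX12 were ACS1 on chromosome 3, LOC4340573 and LOC4340924 on chromosome 6 (r = 0.854 each), LOC4343704 on chromosome 7 (0.826) and LOC4345340 on chromosome 8 (0.820). None of these had more than 0.182 on any array, and each had its highest value in D1137 and G6489, that is, 1 or 2 flagged probes of 11, and a likeness between values this sparse is no finding.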

How the data were processed

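The deposited values are fractions: for each of 57194 probe sets on 17 arrays, the share of perfect match probes that the authors flagged. The authors averaged 2 scans of each array. Per the study's methods, the authors read probe signals with affy, whose version is not stated, scaled them to the mean of wild type without background correction, and flagged probes by their log2 ratio to wild type. The limit of that ratio is not stated beside the values. In 57036 sets all values were multiples of 1/11 within 0.02. Probe signals were not used here, so signal over background is unknown and 1 probe is the finest step of a value.

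With Python 3.11.15, numpy 2.4.6, pandas 2.3.3 and scipy 1.17.1, the 22436 sets paired with exactly 1 gene were kept (95 had several genes and 34663 none), and 3444 genes took the median of several sets. Gene names and order came from the RefSeq table of assembly ASM3414082v1, whose start positions were used only to order the genes. Figures were drawn with matplotlib 3.10.9. The script that finds runs was tested on simulated data. Alternatives changed the threshold, the centring, the wild type check, the rule for several sets and the sets used. All columns of values were mapped to arrays by name.

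The members and gene lists were chosen with earlier results of these data known. The rule for named genes took the members, the nearest genes past the run and those at 0.25 or more in G6489 among the next 10, the vitamin B6 genes, genes called in G6489 and the 5 genes most like PDX12. The other genes past the run, those at 4 of 11 probes and those called under an alternative were named after their values were seen. Line names are given in capitals except d1. The values hold 1 array of each line, so no test between lines was made.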

Additional observations from a re-analysis of the deposited data

Results flagged for a closer look

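Probe sets that are not paired with exactly 1 gene were outside the comparisons above, and more of them were called in G6489 than in the wild type check: 22 against 8 of 34758. The count of G6489 was within that of the other lines, which ran from 3 in D2943 to 610 in G6989. Of these 22 sets, 15 were called in no other array, 3 in 1 to 3 other arrays and 4 in 4 or more. Where in the genome they lie was not analysed here. One of them has the same cluster number in its name as the probe sets of LOC4347936, and its share was 0.727 in G6489, against at most 0.182 elsewhere. Among sets that were not called, 1 shares its cluster number with the probe set of LOC4347941 and had 0.364 in G6489, against at most 0.0909 elsewhere. A pair of sets shares its number with LOC4347942 and had 0.455 and 0.364 in G6489, against at most 0.273 and 0.0909 elsewhere. These sets were picked by name, with their values known.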

How the results depend on the processing

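Under the 10 alternatives tried, of which a call at 4 of 11 probes was chosen after seeing the data, 4 or 5 members were called in G6489 and the run held 4 to 7 genes. LOC4347935 was the member lost, at a threshold of 0.6 and, at 0.455, with the wild type check subtracted. Calls of members on the other arrays numbered 2 in the main setting, 0 at a threshold of 0.6, 3 at 4 of 11 probes, where PDX12 in G6989 was added, and 1 with arrays centred on their median or with the wild type check subtracted, where PDX12 in D1137 was the call that remained. Nuclear genes called in G6489 numbered 13 at 4 of 11 probes and 8 when a gene took its highest probe set, against 7 without the _s_at and _x_at sets and 5 in the main setting. Taking the highest probe set added LOC4324621, LOC4335876 and LOC4348707. Under that rule a gene is called once any of its sets reaches 0.5, and 3 sets of other genes had 0.545 in G6489. Some of these sets were called on other arrays as well, and why they were flagged was not tested. The median share of the members lay between 0.727 and 0.818. No paired analysis was possible because the values hold a single array of each line, and no replicate could be left out. A planned search for similar proteins was not run. One probe moves a share by 0.0909, which is what separates LOC4347935 and LOC4347945 from losing or gaining a call.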
